A study of Mus musculus with 45 samples.

Results

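The genes described here are 44 subunits of the Polycomb repressive complexes and enzymes that write or erase methyl groups on histone tails, taken by name from a list of 44 out of the 23575 genes in the deposited gene table. All 44 were found in it, and 1095 of the 276608 transcript models in the deposited transcript table carry one of these gene names. All 44 lie at the locus of the gene of the same name in the GENCODE mouse annotation of the same build (mm10, also called GRCm38). By role, 8 belong to Polycomb repressive complex 2 (PRC2), 12 to Polycomb repressive complex 1 (PRC1), 10 are histone demethylases, 8 act in methylation of H3K4, H3K36 or H3K79, and 6 act in methylation of H3K9.

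PRC2 places methyl groups on lysine 27 of histone H3, and PRC1 attaches ubiquitin to histone H2A and compacts chromatin, and the pair keep developmental genes silent in a heritable but reversible way. H3K4 methylation marks active promoters, H3K36 and H3K79 methylation mark transcribed gene bodies, and H3K9 methylation marks heterochromatin and silenced repeats, and the demethylases remove these marks. In pluripotent stem cells, PRC2 and PRC1 occupy the CpG-rich promoters of lineage genes, and several of these enzymes are known to ease or hinder the conversion of somatic cells into induced pluripotent stem cells.

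RNA of mouse neural progenitor cells, of cells on the way to pluripotency and of embryonic stem cells was read as long nanopore cDNA reads in 45 libraries. The progenitor lines were derived from Oct4-GFP stem cells (line O4G, which carries a green fluorescent reporter driven by the Oct4 promoter) and were stably transfected, so each factor line is 1 line. Their genotypes were wild type (WT), OKMS-Luciferase-AS (Oct4, Klf4, c-Myc and Sox2) and OKS-Luciferase-AS (without c-Myc), with the Luciferase-AS part carried by both factor lines. Of the libraries, 22 were made from poly(A)-selected RNA by direct cDNA sequencing on R9 flow cells, and 23 from total RNA by PCR cDNA sequencing on R10 flow cells.

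Progenitors in their own medium (day 0) gave 4 R9 libraries (2 WT, 1 OKMS, 1 OKS) and 4 R10 libraries (2 WT, 1 OKMS, 1 OKS). For reprogramming, cells were moved to FBS-LIF, a serum medium with leukaemia inhibitory factor, with doxycycline at 1 µg/mL to switch the factors on. R9 libraries cover days 2, 4, 6, 10, 14 and 20 of both factor lines, and R10 libraries cover days 2, 4, 6, 10 and 18 of OKMS and days 2, 6 and 18 of OKS. WT progenitors in the same medium and drug at day 2 gave 1 R9 and 2 R10 libraries. Other factor cells went on in 2i-LIF (inhibitors of the kinases MEK and GSK3, with LIF, in place of serum) and were read at day 14 (OKMS, R9), day 20 (both lines, R9) and day 18 (both lines, R10). For the R9 libraries the move was at day 6, and for the R10 libraries the labels name no day. Embryonic stem cells, all WT and in 2i-LIF, came from line O4G (1 R9, 2 R10 libraries), its parent R1 (1 R9, 3 R10) and the clone R1-Clone3 (2 R10). Each factor line, day, medium and chemistry is 1 library. Nothing in the labels says that libraries of a group came from separate cultures, so p-values measure only the spread between these samples, which may be technical.

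R9 libraries held 447990 to 1390424 gene reads and R10 libraries 566599 to 4236442, so 1 read is worth 0.719 to 2.23 CPM (reads scaled to a fixed library total) in R9 and 0.236 to 1.76 in R10. The 8 stem cell markers summed to 11256 to 13878 CPM in R10 stem cells, with all 8 above 0 in every library, and to 17.1 to 28.0 in R10 progenitors. The 8 progenitor markers summed to 4382 to 5830 CPM in R10 progenitors and to 90.2 to 175.9 in R10 stem cells, where Olig2 was at 0 throughout. Sox2, also on this list, went the other way, with a mean of 133 CPM in R10 stem cells and 36.8 in R10 progenitors. One R1 stem cell library, the R10 one without an n number in its label, stood apart. Its mitochondrial share was 0.124% of reads, against 1.56 to 2.35% in the 6 numbered stem cell libraries together with the 4 day 18 libraries. The 4 WT R10 libraries of progenitors and day 2 cells lay at 0.153 to 0.319%, and the OKMS and OKS progenitors of R10 at 1.08 and 1.12%. All R10 progenitors thus lay below the 6 numbered stem cell libraries in this share. Its part in the R10 differences between stem cells and progenitors was not tested. In bulk RNA, fewer cells that express a gene and less RNA per cell cannot be told apart.

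A gene was called different at an adjusted p under 0.05 (limma, Benjamini-Hochberg over all genes tested) and a log2 difference of at least 1 in size. Differences are between means of log2(CPM + 1), given ± SE, a scale that understates the changes of low genes. R10 progenitor values are given in the order WT replicate 2, WT replicate 3, OKMS, OKS, and R9 progenitor values in the order WT replicate 1, WT replicate 2, OKMS, OKS. R9 stem cell values are in the order O4G, R1.

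In both chemistries, stem cells carried more RNA of the PRC2 subunits Mtf2, Eed, Jarid2 and Suz12, of Cbx7, Pcgf2 and Ash2l, and less of Suv39h1, than progenitors did. Ring1, Phf19 and Kdm6b were called lower in R10 and not called in R9, and the catalytic subunit Ezh2 was called in neither. Between the 7 stem cell and 4 progenitor libraries of R10, 21 of the 44 members (47.7%) were called. The share over all 15415 genes tested was 45.8%, so the members were called about as often as any gene. Of the 21, 14 were higher in stem cells (22.4% of all genes were) and 7 lower (23.5%). Centring each library on its median gene, which moved the median of all genes by 0.23, made that 18 higher and 5 lower. Of all 15415 genes 7209 were then called, and their split into higher and lower, which centring shifts too, was not counted. The median log2 difference was 0.31 over the members and 0.01 over all genes, and the summed CPM of the 44 was 3356 to 4591 in stem cells against 1833 to 2138 in progenitors. The stem cell and progenitor values of 30 members did not overlap, against 50.9% of all genes tested. In the 2 stem cell and 4 progenitor libraries of R9, 15 members were called against a background of 36.0%, 12 higher (17.6% of all genes) and 3 lower (18.4%). For the 12 members called in R10 and in R9 the signs matched, and 20 of the 21 called in R10 had that sign in R9. The same counts over all genes were not made, so whether the members differ from other genes in this cannot be told. The proliferation list moved too, with 3 of its 8 genes called higher in R10 stem cells, none lower and a summed level of 3308 to 3997 against 2174 to 2475 CPM. Its part in these results was not tested.

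**Figure D1:**
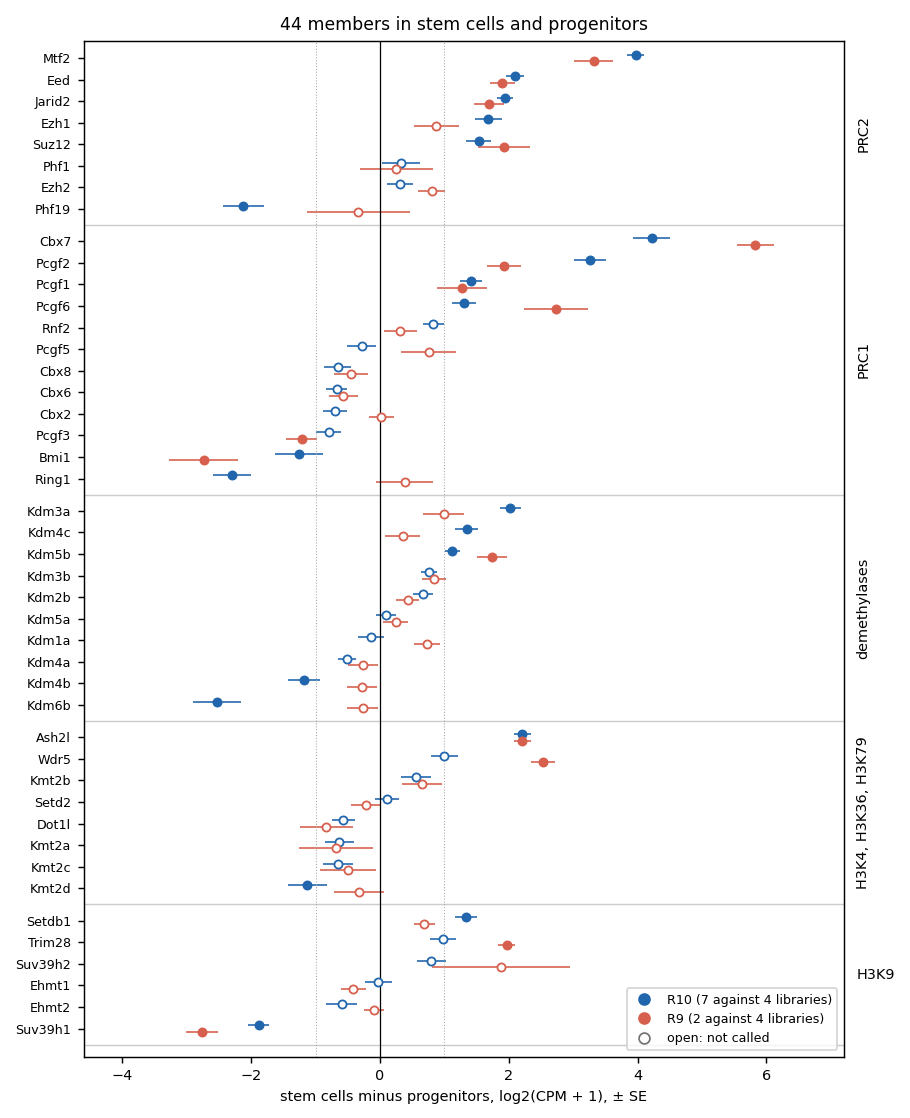
Log2 difference of each of the 44 members between stem cells and progenitors (horizontal axis, log2 of CPM + 1, bars ± SE), in R10 (blue, 7 against 4 libraries) and R9 (red, 2 against 4). Open points were not called and dotted lines mark a log2 difference of 1 in either direction. Cbx7, Mtf2 and Pcgf2 lie farthest to the right in R10, and Kdm6b and Ring1 farthest to the left in R10 with R9 points near 0.

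Of the 8 PRC2 members, 5 were higher in R10 stem cells, 1 was lower and 2 were not called. Mtf2, a Polycomb-like protein that binds CpG-rich DNA and brings PRC2 to it (chr5:108060660-108109382 on the plus strand), rose most. It stood at 22.5, 21.8, 23.3 and 25.1 CPM in the R10 progenitors and at 296 to 495 CPM (median 363) in stem cells, a log2 difference of 3.97 ± 0.13, adjusted p = 1.57e-12. All 7 stem cell libraries lay more than 10 times above every progenitor library. R9 gave 16.0, 28.1, 29.6 and 16.9 CPM in progenitors and 248 and 208 in stem cells, with a log2 difference of 3.32 ± 0.30, adjusted p = 3.19e-04.

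Eed reads the H3K27 mark and stimulates the enzyme (chr7:89954643-89981252 on the minus strand). It was at 50.2, 45.3, 45.7 and 58.4 CPM in R10 progenitors and 158 to 265 CPM (median 224) in stem cells, with no overlap (2.10 ± 0.14, adjusted p = 3.17e-09). In R9, 78.9, 51.3, 72.7 and 60.7 CPM in progenitors faced 263 and 229 in stem cells, and it was called there too (1.90 ± 0.20, adjusted p = 5.47e-04). Jarid2 is a DNA-binding accessory subunit of another PRC2 form (chr13:44729645-44921638 on the plus strand). It was at 64.2, 45.6, 63.3 and 57.3 CPM in R10 progenitors against 198 to 251 CPM (median 211) in stem cells (1.94 ± 0.12, adjusted p = 1.77e-09). The R9 libraries held lower Jarid2 levels in both cell types, 20.1, 30.0, 33.7 and 27.0 CPM in progenitors and 99.4 and 81.9 in stem cells, and again did not overlap (1.69 ± 0.24, adjusted p = 0.00175). A row that the authors name as antisense to Jarid2 held 1907 to 9560 CPM in the R10 libraries and at most 9.55 in R9. Strand use in the counting is not given in the sources used here, so reads of the 2 strands cannot be told apart at this locus.

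Suz12, the scaffold of PRC2 (chr11:79993051-80034123 on the plus strand), was at 15.9, 16.6, 25.0 and 18.1 CPM in R10 progenitors. Stem cells had 35.1 to 73.7 CPM (median 56.5), all above the progenitors (1.53 ± 0.19, adjusted p = 3.93e-06). With the R1 library without an n number as the only stem cell library, the difference was 0.88 and not called. In R9, Suz12 stood at 20.1, 37.8, 47.1 and 18.5 CPM in progenitors and 113 and 109.8 in stem cells (1.92 ± 0.40, adjusted p = 0.00953), a call that ended when either R9 stem cell library was left out (1.90 and 1.94). A row named as antisense to Suz12 overlaps it, at up to 11.4 CPM in R10 and 26.5 in R9 libraries, and its reads cannot be told from those of Suz12 without strand.

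Ezh1 and Ezh2 are the alternative catalytic subunits. Ezh1 (chr11:101191115-101226455 on the minus strand) read 5.40, 5.16, 4.39 and 3.51 CPM in R10 progenitors and 12.8 to 22.6 CPM (median 17.1) in stem cells, without overlap (1.68 ± 0.21, adjusted p = 3.29e-06). Its R9 values were 2.67, 4.84, 2.69 and 3.37 CPM in progenitors and 5.68 and 8.38 in stem cells, and it was not called there (0.88 ± 0.35, adjusted p = 0.0877). Ezh2 (chr6:47530139-47595386 on the minus strand) had 79.1, 66.6, 145 and 107 CPM in R10 progenitors and 89.6 to 147 CPM (median 117) in stem cells, and these ranges overlapped (0.31 ± 0.20, adjusted p = 0.196). R9 separated them, with 237, 198, 168 and 263 CPM in progenitors and 426 and 329 in stem cells, but the difference of 0.81 ± 0.21 (adjusted p = 0.0217) was under the fold threshold. Per unit length, as summed TPM (the length-normalised transcript unit) of each gene's models, the level of Ezh2 was above that of Ezh1 in every R10 progenitor and stem cell library: 53.1 to 158 against 0.430 to 3.44 TPM in progenitors, and 102 to 177 against 2.77 to 16.4 in stem cells.

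The other Polycomb-like proteins did not follow Mtf2. Phf19 (chr2:34893752-34915053 on the minus strand) was at 5.08, 7.75, 9.67 and 4.09 CPM in R10 progenitors and only 0 to 2.32 CPM (median 0.580) in stem cells, and it fell without overlap (-2.12 ± 0.32, adjusted p = 2.38e-05). In R9, 10.7, 4.84, 2.69 and 13.5 CPM in progenitors overlapped 1.89 and 12.1 in stem cells (-0.34 ± 0.80, adjusted p = 0.759). Phf1 was low in both cell types, 0.584 to 3.73 CPM in R10 progenitors and 2.03 to 4.48 in stem cells (0.32 ± 0.30, adjusted p = 0.349).

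Of the 12 PRC1 members 4 were higher in R10 stem cells, 2 lower and 6 not called. Cbx7 (chr15:79915801-79971129 on the minus strand), a chromodomain protein that reads the H3K27 mark for canonical PRC1, went from near 0 to a clear signal. R10 progenitors held 1.91, 0.861, 0 and 2.34 CPM and stem cells 29.0 to 48.5 CPM (median 41.2) (4.22 ± 0.29, adjusted p = 4.65e-09). All 4 R9 progenitor libraries were at 0 while R9 stem cells had 47.3 and 66.1 CPM. Against a floor of 3 reads per library, which is 2.90 to 5.06 CPM, that is at least 9.36-fold higher. The deposited spans of Cbx7 and of its neighbour Cbx6 (chr15:79823898-79946072 on the minus strand) overlap on the same strand, so reads in the shared stretch are uncertain between them.

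The remaining Cbx proteins did not rise. Cbx2 had 11.8, 16.4, 15.4 and 12.3 CPM in R10 progenitors and 6.56 to 9.86 CPM (median 7.54) in stem cells, which did not overlap but missed the fold threshold (-0.70 ± 0.19, adjusted p = 0.00427). Cbx6 went from 48.3, 49.9, 50.1 and 47.9 CPM to 23.2 to 46.1 CPM (median 29.2) (-0.68 ± 0.17, adjusted p = 0.00199), the highest value being that of O4G replicate 2. Cbx8 went from 17.5, 16.9, 18.5 and 15.8 CPM to 5.89 to 14.6 CPM (median 11.3) (-0.65 ± 0.21, adjusted p = 0.0116). In R9 none of these 3 was called, with differences of 0.02 ± 0.20, -0.57 ± 0.22 and -0.45 ± 0.26. Per unit length, Cbx7 was the lowest of the 4 in R10 progenitors at 0 to 0.0975 TPM, below Cbx2 at 1.73 to 3.31, Cbx6 at 8.99 to 15.7 and Cbx8 at 9.58 to 14.2, the last pair overlapping. In R10 stem cells Cbx7 was at 4.99 to 7.97 TPM, within the range of Cbx8 (4.27 to 14.8) and of Cbx6 (1.52 to 10.6) and above that of Cbx2 (0.474 to 4.33). By CPM, which does not divide by length, the order differed. Cbx7, at 29.0 to 48.5 CPM in R10 stem cells, lay above Cbx8 and Cbx2 without overlap and overlapped Cbx6. In R10 progenitors Cbx6 lay above Cbx8 by CPM without overlap. TPM also rests only on the reads assigned to models.

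Pcgf proteins define which PRC1 form assembles. Pcgf2 (chr11:97688821-97700551 on the minus strand), of canonical PRC1, was at 2.54, 10.6, 6.59 and 8.76 CPM in R10 progenitors and 60.4 to 85.5 CPM (median 70.2) in stem cells, with no overlap (3.26 ± 0.25, adjusted p = 1.47e-08). R9 gave 12.0, 13.6, 13.5 and 18.5 CPM in progenitors and 69.1 and 46.5 in stem cells (1.92 ± 0.26, adjusted p = 0.00156). Its alternative Bmi1 went the other way, from 5.40, 6.89, 17.1 and 16.4 CPM to 1.12 to 5.82 CPM (median 4.15) in R10 (-1.26 ± 0.37, adjusted p = 0.00684). These ranges overlap, and with WT progenitors only (-0.60) or O4G stem cells only (-0.98) Bmi1 was not called. R9 showed a wider gap for Bmi1, 18.7, 69.7, 55.2 and 62.4 CPM in progenitors against 6.63 and 5.58 in stem cells (-2.74 ± 0.53, adjusted p = 0.00704), but without either R9 stem cell library it was not called either (-2.84 and -2.63).

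Of the variant PRC1 subunits, Pcgf1 and Pcgf6 were higher in stem cells in both chemistries, by 1.41 ± 0.17 and 1.31 ± 0.18 in R10 and by 1.27 ± 0.38 and 2.73 ± 0.50 in R9. Both R9 calls were lost without either R9 stem cell library, and that of Pcgf1 also without WT progenitor replicate 2 or the OKMS progenitors. Pcgf3 missed the threshold in R10 (-0.80 ± 0.20) and was called lower in R9 (-1.22 ± 0.24, adjusted p = 0.00728), a call that was lost without the R1 stem cells. A row named as antisense to Pcgf3 overlaps it and held 4.73 and 58.6 CPM in R9 stem cells, where Pcgf3 had 16.1 and 11.2, and 6.75 to 12.0 in R9 progenitors, where Pcgf3 had 28.1 to 39.7, so the strand of these reads cannot be told apart either. Pcgf5 was not called in R10 (-0.29 ± 0.22) or R9 (0.75 ± 0.42).

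Ring1 and Rnf2 are the paralogous ubiquitin ligases of PRC1. Ring1 (chr17:34020559-34024665 on the minus strand) was at 9.85, 9.47, 7.91 and 8.76 CPM in progenitors and 0 to 2.241 CPM (median 0.870) in stem cells, without overlap (-2.30 ± 0.30, adjusted p = 5.67e-06). In R9 the arms overlapped, with 17.4, 5.81, 6.73 and 8.43 CPM in progenitors and 12.3 and 11.2 in stem cells (0.38 ± 0.45, adjusted p = 0.524). Rnf2 (chr1:151469399-151501006 on the minus strand) was at 37.8, 44.5, 48.3 and 50.2 CPM in R10 progenitors and 51.5 to 95.7 CPM (median 87.6) in stem cells, separate but under the fold threshold (0.83 ± 0.17, adjusted p = 3.67e-04). Per unit length Rnf2 lay above Ring1 in each arm of R10, 14.0 to 19.5 against 2.28 to 10.7 TPM in progenitors and 15.3 to 77.6 against 0 to 1.95 in stem cells.

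**Figure D2:**
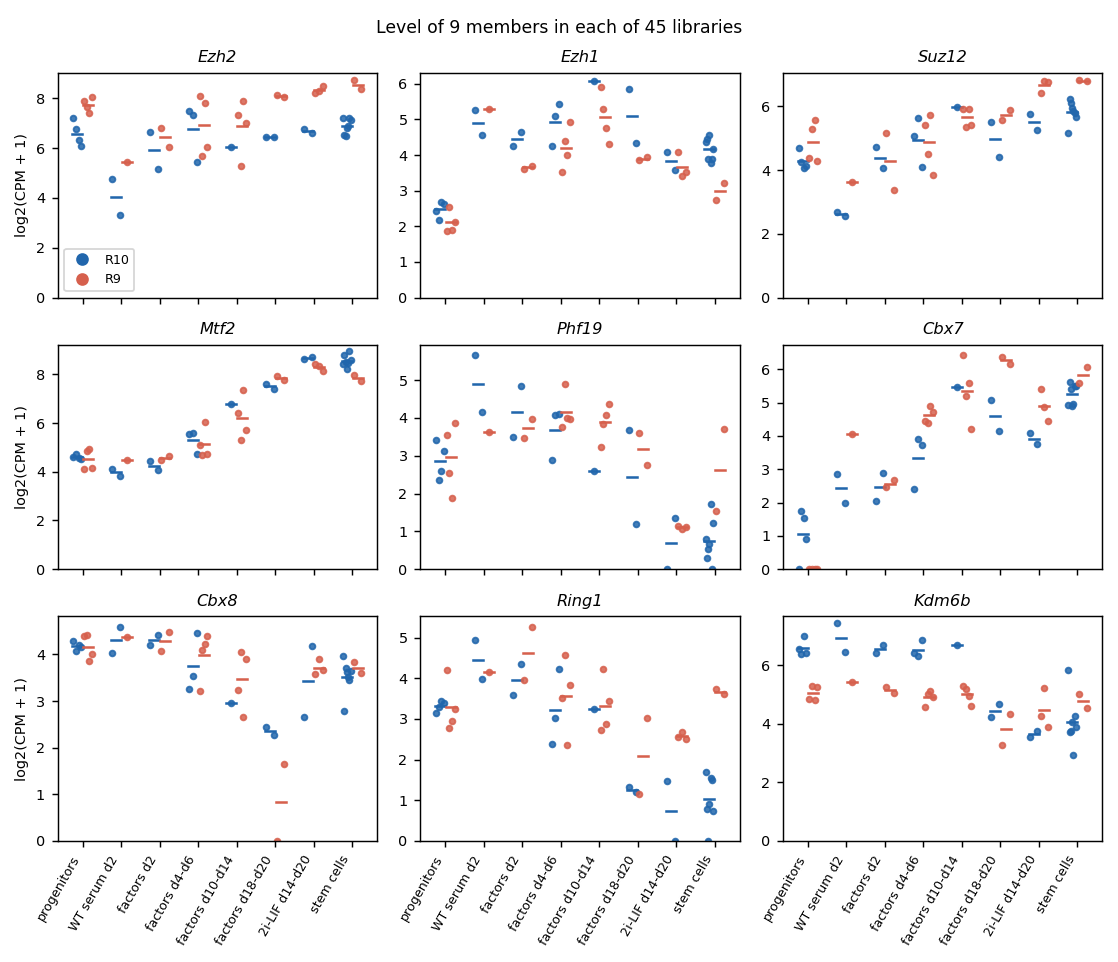
CPM of 9 members on a log2(CPM + 1) axis in each library of 8 sets, with a point per library and a bar at the mean log2 value of the set. Cbx7 is at or near 0 in all progenitors, Mtf2 is at 296 CPM or more in every R10 stem cell library, and the low Ring1 and Kdm6b values of R10 stem cells have no counterpart in R9.

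Among the 10 demethylases, 3 were higher in R10 stem cells, 2 lower and 5 not called. Kdm3a removes H3K9 methylation (chr6:71588946-71633473 on the minus strand). It was at 33.3, 25.0, 38.7 and 33.9 CPM in progenitors and 111 to 180.1 CPM (median 126) in stem cells (2.02 ± 0.16, adjusted p = 2.37e-08). In R9, 33.4, 61.0, 45.8 and 74.2 CPM in progenitors stood below 97.5 and 109 in stem cells, a difference just under the fold threshold (0.99 ± 0.32, adjusted p = 0.0448). Kdm5b, an H3K4 demethylase, was at 43.2, 37.9, 46.6 and 45.6 CPM in R10 progenitors and 81.7 to 110.2 CPM (median 95.7) in stem cells (1.12 ± 0.12, adjusted p = 5.58e-07). It was called in R9 too (36.1, 54.2, 40.4 and 59.0 against 167 and 149.8 CPM, 1.74 ± 0.23, adjusted p = 0.00134). Without the 3 R10 libraries of low mitochondrial share, its R10 difference was 0.99, under the threshold. Of the Kdm4 enzymes, which act on H3K9 and H3K36, Kdm4c was higher in R10 (1.35 ± 0.18, adjusted p = 7.18e-06) and Kdm4b lower (-1.18 ± 0.25, adjusted p = 5.71e-04). Kdm4b lost its call with O4G stem cells only (-0.77) and on centring to the median gene (-0.95). Neither was called in R9. There Kdm4c was at 10.7 to 15.2 CPM in progenitors and 14.2 and 21.4 in stem cells, and Kdm4b at 14.7 to 20.3 and 14.2 and 14.9.

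Kdm6b removes the H3K27 mark and so opposes PRC2 (chr11:69398504-69420351 on the minus strand). Its R10 values were 128, 84.4, 93.1 and 83.5 CPM in progenitors and 6.58 to 55.6 CPM (median 13.8) in stem cells, without overlap (-2.53 ± 0.38, adjusted p = 2.20e-05). The highest stem cell value, 55.6 CPM, was that of the R1 library without an n number, and the next was 18.2. With that library as the only one of stem cells the difference was -0.77 and not called. In R9 the arms overlapped at 28.1, 37.8, 26.9 and 37.1 CPM in progenitors and 31.2 and 22.3 in stem cells (-0.27 ± 0.24, adjusted p = 0.398). Most R10 progenitor reads assigned to Kdm6b models belonged to short models at its 3' end: 358 of 491 reads (72.9%) began at chr11:69400261-69400280, against 3 of 50 in stem cells. Outside that start 133 progenitor reads faced 47 stem cell reads, from 4 and 7 libraries. In R9 progenitors 14 of 41 reads began there. A row named by the authors as antisense to Kdm6b (chr11:69398508-69399360, plus strand) lies within the 3' end of Kdm6b and was at 45.9 to 79.7 CPM in R10 progenitors and 6.27 to 44.1 in R10 stem cells. Whether the Kdm6b reads come from its own strand was not tested.

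Kdm1a, an H3K4 demethylase of the CoREST complex, overlapped between the arms in R10 (105.1, 104.7, 107 and 97.0 CPM against 70.2 to 179 CPM (median 89.2), -0.14 ± 0.20, adjusted p = 0.541). Kdm2b, which removes H3K36 methylation and also anchors a variant PRC1 on CpG islands, was separate but under the fold threshold (29.9, 30.4, 24.6 and 29.2 CPM against 32.5 to 57.2 CPM (median 44.9), 0.67 ± 0.16, adjusted p = 0.00142). The log2 differences of the other uncalled demethylases were 0.76 ± 0.12 for Kdm3b, -0.51 ± 0.14 for Kdm4a and 0.09 ± 0.16 for Kdm5a.

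In the H3K4, H3K36 and H3K79 group, 1 of 8 members was higher in R10 stem cells and 1 lower. Ash2l and Wdr5 are core subunits shared by all KMT2 complexes. Ash2l (chr8:25815301-25847748 on the minus strand) was at 61.9, 74.6, 82.2 and 80.6 CPM in R10 progenitors and 263 to 414 CPM (median 354) in stem cells (2.21 ± 0.14, adjusted p = 1.12e-09). R9 gave 89.6, 109, 104 and 89.4 and 442 and 469 CPM and the same size of difference (2.21 ± 0.13, adjusted p = 7.48e-05). Wdr5 was separate in both chemistries, at 295, 274, 269.8 and 265 CPM against 414 to 1124 CPM (median 526.0) in R10 and 72.2, 112, 91.5 and 101 against 531 and 557 in R9. Its R10 difference rounded to the fold threshold without reaching it (1.00 ± 0.21, adjusted p = 5.50e-04), and its R9 difference was called (2.53 ± 0.19, adjusted p = 1.41e-04).

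None of the KMT2 enzymes themselves, large H3K4 methyltransferases, was called higher. Kmt2d was called lower in R10 (56.5, 37.6, 34.7 and 38.6 CPM against 11.8 to 51.2 CPM (median 15.1), -1.13 ± 0.30, adjusted p = 0.00384), but its arms overlapped because the R1 library without an n number read 51.2. The Kmt2d call was lost without WT progenitor replicate 2 (-0.98), in edgeR (-0.97) and on centring to the median gene (-0.90), and against that R1 library alone the sign turned (0.31). Kmt2b read 28.9, 23.2, 18.9 and 14.0 CPM in R10 progenitors and 20.0 to 47.4 CPM (median 34.4) in stem cells, with overlap (0.56 ± 0.23, adjusted p = 0.0455), and missed the fold threshold. In R9 both stem cell libraries, at 41.7 and 32.6 CPM, lay above the progenitors, at 14.7 to 30.0 (0.65 ± 0.31, adjusted p = 0.138). Kmt2a (-0.63 ± 0.22) and Kmt2c (-0.65 ± 0.23) were not called, nor were the H3K79 methyltransferase Dot1l (-0.57 ± 0.18) and the H3K36 methyltransferase Setd2 (0.11 ± 0.19).

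Among the 6 H3K9 genes, 1 was higher in R10 stem cells, 1 lower and 4 not called. Suv39h1, which methylates H3K9 at pericentromeric heterochromatin (chrX:8061167-8074730 on the minus strand), was at 80.0, 69.4, 54.0 and 61.3 CPM in R10 progenitors and 12.8 to 20.2 CPM (median 17.7) in stem cells (-1.88 ± 0.16, adjusted p = 6.45e-08). In R9 it went from 49.5, 63.9, 43.1 and 57.3 CPM to 5.68 and 8.38 (-2.77 ± 0.24, adjusted p = 2.76e-04). Setdb1, which silences endogenous retroviruses, was at 59.4, 47.3, 53.6 and 42.6 CPM in R10 progenitors and 80.6 to 155 CPM (median 142) in stem cells (1.33 ± 0.17, adjusted p = 3.71e-06). R9 gave 52.2, 49.4, 60.6 and 67.5 CPM against 93.7 and 91.2, below the threshold (0.69 ± 0.17, adjusted p = 0.0163).

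Trim28, the scaffold that brings Setdb1 to zinc finger proteins, was at 191, 178, 179 and 177 CPM in R10 progenitors and 260.3 to 696 CPM (median 349.5) in stem cells, separate but just under the threshold (0.98 ± 0.20, adjusted p = 4.98e-04). In R9 it was called, from 385, 378, 369 and 467 CPM to 1449 and 1683 (1.97 ± 0.13, adjusted p = 1.06e-04). Ehmt2 (G9a) had overlapping arms in R10 (84.5, 62.3, 61.9 and 48.5 CPM against 31.3 to 92.2 CPM (median 37.7), -0.60 ± 0.25, adjusted p = 0.0414), as did its partner Ehmt1 (-0.02 ± 0.21). Most stem cell transcript reads named Ehmt2 came from a short model without an open reading frame that starts outside the gene. It held 249 of 318 reads in R10 stem cells and 0 of 70 in R10 progenitors. How far such reads enter the gene CPM of Ehmt2 was not tested. Suv39h2 was not called (0.80 ± 0.23).

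The difference between stem cells and progenitors depended on the chemistry for 3 of the 44 members, against 3.64% of all genes, all 3 with a lower value in R10 (2.10% of all genes). Ring1 (-2.68 ± 0.55, adjusted p = 0.0135, R10 minus R9), Kdm6b (-2.26 ± 0.58, adjusted p = 0.0347) and Wdr5 (-1.54 ± 0.33, adjusted p = 0.0161) were the 3. edgeR called 1 of the 3, Ring1, and 86 of 15300 genes where limma called 557. At a pseudocount of 0.25 Kdm6b lost its call (-2.32). R9 and R10 differ in RNA selection, PCR and depth together, and these cannot be told apart.

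Other genes of these pathways were counted from a list of 60, of which 56 passed the filter on low values in R10. Of the 56, 16 were higher in stem cells and 13 lower, against 22.4% and 23.5% of all genes, with a median log2 difference of 0.14. Higher were Phc1 (2.85), a Polyhomeotic subunit of canonical PRC1, Rybp (2.49), which marks variant PRC1, Epop (1.92), a PRC2 accessory subunit, and Tasor (1.90), of the HUSH silencing complex. Lower were the lysine methyltransferase Setd7 (-3.11), Phc2 (-3.08), the Rybp paralog Yaf2 (-2.99) and the demethylase Phf2 (-1.86). In R9, 56 of the 60 were tested, and 12 were higher and 8 lower, against 17.6% and 18.4% of all genes. The paralog pairs Phc1 and Phc2, and Rybp and Yaf2, therefore differed in opposite directions in R10.

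Long reads also showed where the members' transcript models began. Transcript models of a gene whose 5' ends lay within 100 bases of each other were joined into a start, and the reads of each start were summed. This grouping was chosen after transcript values had been seen, and its results are given as a description without a test. Of 31 members with at least 50 reads in each R10 arm, 8 had a start whose share of the gene's reads differed by at least 30 percentage points between the medians of the arms without overlap. By the same rule 368 of 7619 genes of the whole table (4.83%) had one. Among the 8, the starts of Kdm4a and Kdm6b belong to models classed as 3' fragments, and an Ehmt2 start lies 72625 bases upstream of the next. A start in this sense is the 5' end of models, and whether it marks a fragment or a start of transcription was not tested. For Ash2l, Mtf2, Kdm2b and Kdm3a, the main start of R10 stem cells held at most 17.2% of reads in any R10 progenitor library and lay 4976 bases or more from the one most used there.

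For 4 of these starts a promoter entry exists in RefSeq (build GRCm38.p6), and the 300 bases from 250 before to 50 after the annotated start are printed here 5' to 3' with every CG dinucleotide in capitals, since CpG-rich DNA is what Mtf2 and Kdm2b bind. The first pair compares both starts of Kdm3a: the internal one used in stem cells holds no CG dinucleotide (GC content 49.0%), and the upstream one used in progenitors holds 24 (60.7%). The third is the start of Mtf2 used in progenitors, with 30 CG dinucleotides (60.7%), and the fourth is the start of Kdm2b used in progenitors, with 49 (81.7%).
Kdm3a internal start, chr6:71609090-71609389, minus strand: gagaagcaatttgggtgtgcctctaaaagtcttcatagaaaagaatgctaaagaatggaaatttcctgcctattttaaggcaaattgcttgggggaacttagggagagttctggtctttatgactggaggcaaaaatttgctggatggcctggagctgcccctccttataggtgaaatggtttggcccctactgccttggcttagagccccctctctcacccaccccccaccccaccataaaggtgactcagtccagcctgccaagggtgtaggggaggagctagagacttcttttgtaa
Kdm3a upstream start, chr6:71632868-71633167, minus strand: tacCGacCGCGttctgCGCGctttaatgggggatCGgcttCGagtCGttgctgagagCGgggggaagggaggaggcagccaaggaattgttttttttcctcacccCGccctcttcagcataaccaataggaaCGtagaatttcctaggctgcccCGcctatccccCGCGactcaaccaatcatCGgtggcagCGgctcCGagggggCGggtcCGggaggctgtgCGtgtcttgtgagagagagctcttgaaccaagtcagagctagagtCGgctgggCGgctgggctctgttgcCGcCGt
Mtf2 downstream start, chr5:108065424-108065723, plus strand: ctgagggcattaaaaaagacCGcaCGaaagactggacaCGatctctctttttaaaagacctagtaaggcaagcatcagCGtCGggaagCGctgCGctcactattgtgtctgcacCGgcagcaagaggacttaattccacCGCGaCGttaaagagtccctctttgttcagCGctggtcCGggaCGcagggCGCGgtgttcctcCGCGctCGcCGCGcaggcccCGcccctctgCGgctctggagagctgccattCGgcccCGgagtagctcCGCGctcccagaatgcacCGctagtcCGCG
Kdm2b downstream start, chr5:122900301-122900600, minus strand: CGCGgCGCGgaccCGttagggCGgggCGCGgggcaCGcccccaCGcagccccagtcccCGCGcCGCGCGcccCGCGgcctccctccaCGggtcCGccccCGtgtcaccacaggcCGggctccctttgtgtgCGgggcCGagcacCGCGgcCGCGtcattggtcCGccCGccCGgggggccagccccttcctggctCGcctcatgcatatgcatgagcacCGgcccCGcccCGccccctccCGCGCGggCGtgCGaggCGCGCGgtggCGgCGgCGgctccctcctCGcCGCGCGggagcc

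Ash2l had an upstream start at chr8:25847602-25847748 and, 6841 bases downstream, a second at chr8:25840761-25840792. The upstream start covers the annotated transcript Ash2l-204, whose full-splice models carry an open reading frame of 534 residues, and the downstream one covers Ash2l-201, with 623 residues. In R10 stem cells 4014 of 4394 Ash2l reads (91.4%) began at the upstream start, 79.3 to 93.6% by library. R10 progenitors had 9 of 294 there (1.09 to 5.56%) and 91.0 to 94.6% at the downstream start. The lowest stem cell share was that of the R1 library without an n number, and the other 6 lay at 91.2% or more. R9 repeated the separation with 182 of 287 reads in stem cells and 1 of 64 in progenitors.

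Mtf2 had its stem cell start at chr5:108060660-108060754, 4920 bases upstream of the nearest annotated start, in 43 deposited models of which the longest open reading frame was 491 residues. The most-read models of this start, with 504 and 435 reads in R10 stem cells, are classed as intron retention and had frames of 298 and 228 residues. This start took 3284 of 4258 reads in R10 stem cells (70.7 to 81.0% by library) and 9 of 144 in R10 progenitors (0 to 17.2%). The start at chr5:108065636-108065726, of the annotated Mtf2-203 with 475 residues, took 79.3 to 94.1% of progenitor and 14.3 to 26.4% of stem cell reads. Since Mtf2 was also 16.5-fold higher in stem cells by mean CPM, both starts gave more reads there, 3284 and 781 against 9 and 124 in transcript reads summed over 7 and 4 libraries. In R9 the upstream start took 59 of 145 reads in stem cells and 4 of 25 in progenitors, and by library the shares overlapped (25.9 to 50.6% against 0 to 33.3%).

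Kdm2b reads in stem cells came mainly from a start at chr5:122922144, 37 bases from the annotated start of Kdm2b-208 and carried by 1 model with an open reading frame of 788 residues. It took 344 of 457 R10 stem cell reads (57.9 to 83.9%) and 0 of 66 R10 progenitor reads, where a count of 0 allows a share of up to 4.55%. The start 21809 bases downstream, at chr5:122900335-122900387 (Kdm2b-201), took 47.4 to 88.9% of progenitor reads. Both lie inside the gene, and upstream here names only their order. Models with starts farther upstream reach chr5:122989414. The most used of these starts in R10 progenitors, chr5:122989402-122989414, took 9 of 66 reads there and 6 of 457 in stem cells. R9 gave 9 of 16 and 0 of 22 reads at the upstream start. The gene level of Kdm2b was not called different in any comparison, so its start differed where its summed level did not pass the test.

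In Kdm3a the start used more in stem cells was the downstream one of its pair. The start at chr6:71609051-71609142 (Kdm3a-204) lies 23760 bases downstream of the one at chr6:71632811-71632991 (Kdm3a-201), inside the gene. It took 601 of 1021 reads in R10 stem cells (48.6 to 74.3%) and 3 of 83 in progenitors (0 to 4.76%). Models from the internal start had open reading frames of 551 residues (the annotated form) and 822 (its most abundant model), against 1323 for the upstream start, which took 53.3 to 75.0% of progenitor reads. R9 had few Kdm3a reads, 12 of 22 in stem cells and 4 of 19 in progenitors at the internal start, and the shares by library overlapped (44.4 to 61.5% against 0 to 50%).

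In the same class, Kdm1a moved in R10 but hardly in R9: its start at chr4:136602592-136602794 took 57.9 to 88.1% of stem cell and 35.5 to 47.2% of progenitor reads in R10, and pooled 82.9% and 77.8% in R9. Kdm4a had a 3' fragment at chr4:118144646 with 9.33 to 21.3% of stem cell and 43.9 to 62.2% of progenitor reads, a difference that vanished (-4.86 points) when models up to 500 bases apart were joined. The other 2 of the 8 were Kdm6b, described above, and Ehmt2.

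**Figure D3:**
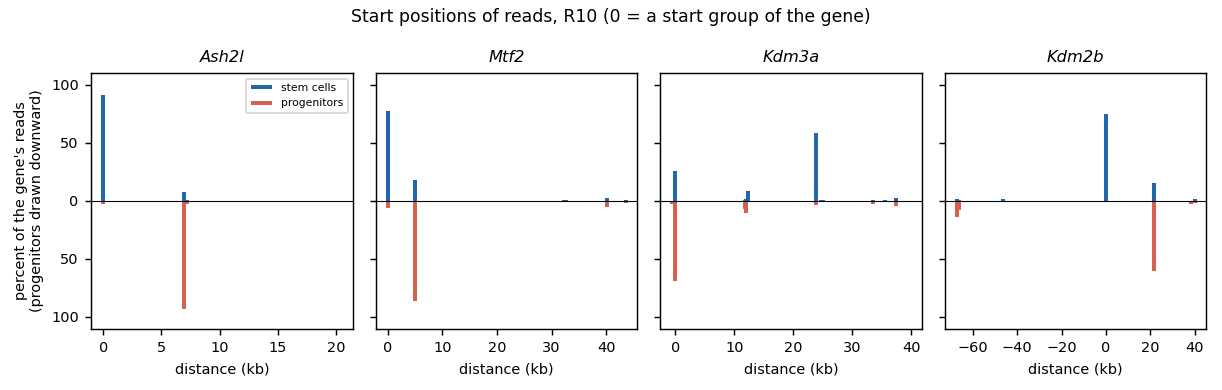
Share of each gene's R10 transcript reads by distance of the model's 5' end along the gene (kb, horizontal axis), with stem cells plotted upward and progenitors downward, for Ash2l, Mtf2, Kdm3a and Kdm2b. For each gene the tallest stem cell bar and the tallest progenitor bar stand at different positions.

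The share of Ash2l reads from the upstream start was low in the early days of both factor lines and high at the end. In the R9 OKMS cells it held 0 of 19 reads at day 0, 0 of 24 at day 2, 2 of 17 at day 4, 7 of 20 at day 6, 34 of 54 at day 10, 76 of 95 at day 14 and 127 of 155 at day 20. In R9 OKS cells the counts were 0 of 3, 3 of 13, 0 of 21, 0 of 16, 0 of 7, 8 of 23 and 108 of 143 on the same days. At day 10 the share in OKMS was 63.0% (95% Wilson interval 49.6 to 74.6%, counting error only), and at day 14 the share in OKS was 34.8% (18.8 to 55.1%). The OKS count at day 10 rests on 7 reads.

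R10 libraries gave like counts. OKMS held 2 of 52 reads at day 2, 6 of 41 at day 4, 10 of 50 at day 6, 79 of 112 at day 10 and 95 of 98 at day 18. OKS held 4 of 54 at day 2, 3 of 58 at day 6 and 48 of 55 at day 18. All 5 libraries in 2i-LIF used the upstream start for most reads, 122 of 131, 136 of 152 and 82 of 90 in R9 and 118 of 120 and 98 of 103 in R10. WT progenitors after 2 days of serum and doxycycline did not, with 5 of 42 and 1 of 44 in R10 and 1 of 13 in R9.

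The upstream Mtf2 start followed a like course on fewer reads. R9 OKMS cells held 8 of 17 reads at day 10, 29 of 59 at day 14 and 36 of 65 at day 20, and OKS cells held 1 of 8, 3 of 20 and 67 of 110. In R10 the OKMS counts were 21 of 57 at day 10 and 28 of 39 at day 18, and OKS had 34 of 57 at day 18. The upstream Kdm2b start held 9 of 11 and 6 of 10 reads in the R10 libraries in 2i-LIF and none in serum up to day 10.

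**Figure D4:**
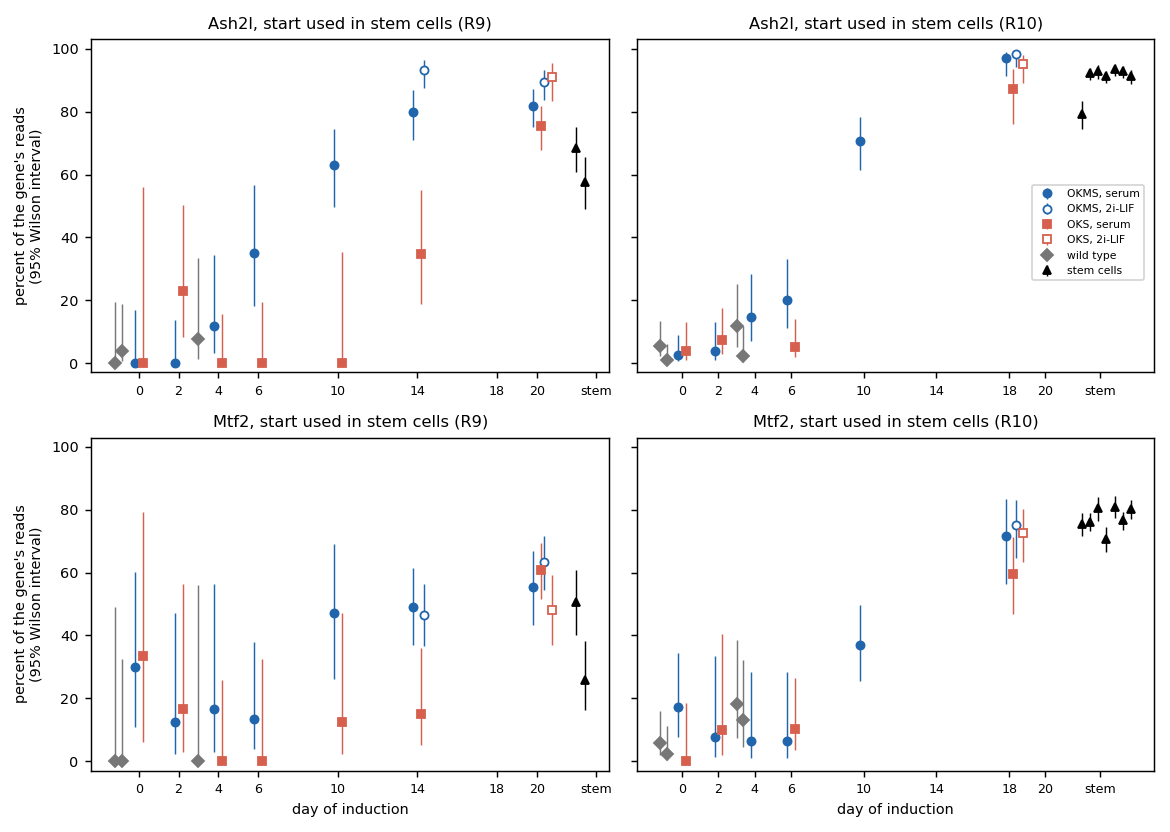
Share of Ash2l and Mtf2 transcript reads from the start used in stem cells (percent, vertical axis) by day, with 95% Wilson intervals, for R9 (left) and R10 (right). Blue circles are OKMS, red squares OKS (open in 2i-LIF), grey diamonds wild type and triangles stem cells. For Ash2l the R9 OKMS share passes 60% at day 10 while the R9 OKS share is under 40% at day 14, and both pass 70% at day 20.

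A test on transcript shares called models of Ash2l, Mtf2, Kdm1a and Kdm4a among the 8 genes with a separated start, and Kdm2b, Kdm3a, Kdm6b and Ehmt2 were below its level limit and not tested. For each gene above 5 TPM, the share of each model at 5% or more was compared between R10 arms, and a model was called at an adjusted p under 0.05 (limma on arcsine square-root shares) and a change of at least 10 points. Of 100 member models tested, from 17 genes, 24 were called (21.4% of all 22130 models), 16 with a higher share in stem cells (11.2% of all) and 8 with a lower share (10.2%). They came from 10 members: 5 each from Ash2l and Mtf2, 3 each from Kdm1a and Kmt2c, 2 each from Kdm4a and Rnf2, and 1 each from Ehmt1, Kdm5b, Setdb1 and Trim28. Of the 24, 9 are fragments that the authors' classes place at the 5' side of an annotated transcript, so a change of share can come from where molecules or reads end.

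The widest change was a Kdm4a model of 7 exons with a splice site not in the annotation, at 48.6% ± 14.0 (SD, n = 7) of Kdm4a in R10 stem cells and 0% in all 4 progenitor libraries (adjusted p = 9.25e-06). It was called in R9 as well (49.3 points higher, adjusted p = 0.00972). Another Kdm4a model, a 3' fragment of 6 exons, had 16.3% ± 3.72 in stem cells and 58.1% ± 6.36 (n = 4) in progenitors. By reads in R9 it held 14 of 44 in stem cells and 25 of 49 in progenitors. There the shares by library overlapped (23.1 to 44.4% against 11.1 to 70.0%). So Kdm4a, whose gene level was not called in any comparison, changed in its models.

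Ash2l changed through 2 full-splice models of 16 exons from the downstream start, which held 43.0% ± 6.67 and 33.5% ± 3.66 (SD, n = 4) in progenitors and under 1% in stem cells. A fragment of 5 exons from the upstream start rose to 35.4% ± 8.82 from 0. A Kdm1a model of 2 exons held 42.0% ± 12.5 in progenitors and 0 in stem cells. Short models weigh heavily on the TPM scale: by reads the same 2-exon Kdm1a model went from 17.2% to 0.

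A Setdb1 fragment of 7 exons was at 51.9% ± 6.49 in stem cells and 17.0% ± 12.3 in progenitors, with the opposite sign in R9 (-13.7 points). A 2-exon Rnf2 model of 183 bases was at 31.9% ± 17.0 in stem cells and 0 in progenitors, with the opposite sign in R9 (-10.98 points), and by reads it was 4.797% of Rnf2 in stem cells.

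Over the R9 time course in FBS-LIF with doxycycline, 10 of 44 members changed across days 0 to 20 in both lines together, against 10.7% of all 19357 genes tested. Of the 10, 9 were higher than at day 0 on their day of largest change (5.50% of all genes) and 1 lower (5.24%). Of these 10, 8 were also called between R10 stem cells and progenitors, in other libraries, which is 80% of these 10 and 38.1% of the 21 called there. Over all genes, 1543 were called in both, 74.3% of those of the time course and 21.8% of those between stem cells and progenitors. Without day 20 only 2 calls were left, Cbx7 and Ezh1, of 601 over 18612 genes, and the R10 series, with fewer days, called 2, Mtf2 and Pcgf2, of 371 over 18212 genes. Median centring left 10 calls. It moved the median over all genes of the largest signed difference from day 0, each gene on its own day, by -1.08. edgeR called 19 members and 4573 of the 19357 genes. Lists of other cell types moved over the same days. The 8 progenitor markers summed to 3587 to 6033 CPM in R9 progenitors, 2488 at day 2 and 137 at day 20 in OKMS, and 4752 and 187 in OKS. The mesenchymal list summed to 21.5 to 147 CPM in R9 progenitors, 149 to 940 in OKMS and 793 to 3465 in OKS over days 2 to 20, with Col1a2 at 0 in the progenitors, and to 5.68 and 8.38 in R9 stem cells. The neuron list, whose genes do not all move together, was at 243 to 384 CPM in R9 progenitors and at 904 and 997 at day 20 of OKMS and OKS. The proliferation list was at 2001, 1958 and 3014 CPM on days 0, 10 and 20 of OKMS, and at 2034, 388 and 2858 in OKS. The part of all these lists in these changes was not tested.

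For each of these the largest difference from day 0 is given, with the adjusted p for any change over the days. Cbx7 had the largest. In OKMS it went from 0, 4.52, 20.9, 28.7, 84.4, 47.5 and 82.5 CPM on days 0, 2, 4, 6, 10, 14 and 20, and in OKS from 0, 5.35, 20.0, 25.4, 35.7, 17.4 and 70.4 (adjusted p = 2.49e-04, largest at day 20). Against a floor of 3 reads at day 0, day 20 was at least 20.4-fold higher in OKMS and at least 13.9-fold higher in OKS. It was above 0 from day 2 on in both lines and above 15 CPM from day 4. WT progenitors at day 2 in the same medium also held Cbx7 reads, 15.6 CPM in R9 and 6.26 and 2.96 in R10. Ezh1 peaked in the middle, at 2.69, 11.3, 10.4, 15.0, 59.1, 26.4 and 13.5 CPM in OKMS and 3.37, 12.0, 20.0, 29.5, 37.9, 19.0 and 14.4 in OKS, with its largest difference at day 10 (3.59 ± 0.51, adjusted p = 0.0143). From day 2 on all its values were above those of both R9 stem cell libraries, 5.68 and 8.38 CPM, and the WT cells at day 2 in the same medium were too, at 38.2 CPM.

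Mtf2 rose late, and later in OKS: 29.6, 21.5, 33.4, 65.5, 83.0, 165 and 244 CPM in OKMS and 16.9, 24.1, 24.8, 25.4, 37.9, 52.1 and 215 in OKS (3.30 ± 0.42, adjusted p = 0.00272). Without day 20 its largest difference was 2.00 and it was not called. Cbx8 was the member that fell, from 13.5, 15.8, 8.35, 17.7, 8.44, 5.28 and 0 CPM in OKMS and 15.2, 21.4, 16.2, 20.1, 15.6, 14.1 and 2.16 in OKS (-3.11 ± 0.57, adjusted p = 0.0168), with both day 20 libraries the lowest of their line. These day 20 values are 0 and 3 reads. Eed went 72.7, 104, 119, 157, 156, 194 and 512 CPM in OKMS and 60.7, 60.2, 67.7, 64.3, 29.0, 72.8 and 264 in OKS (2.45 ± 0.41, adjusted p = 0.0176). Ash2l went 104, 92.7, 144, 123, 228, 256 and 467 CPM in OKMS and 89.4, 86.9, 75.3, 83.0, 69.2, 88.5 and 260.1 in OKS (1.85 ± 0.38, adjusted p = 0.0386). In both, the OKS value of day 20 was above that of every earlier day, and the lowest OKS value was that of day 10.

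Jarid2 (2.31 ± 0.37, adjusted p = 0.0191) and Pcgf2 (2.21 ± 0.38, adjusted p = 0.0334) also rose, as did Pcgf6 (2.82 ± 0.51, adjusted p = 0.0463) and Trim28 (1.71 ± 0.45, adjusted p = 0.0447), all with the largest difference at day 20. Pcgf2, Pcgf6 and Trim28 lost their calls without day 2, Trim28 also without day 14, and Pcgf6 and Trim28 at a pseudocount of 0.25. Without day 20 the sign for Trim28 turned (-0.59). Each day is 1 library per line, and the OKMS and OKS libraries of a day serve as the replicates of that day.

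R10 gave Cbx7 values of 0, 3.16, 4.26, 14.1, 43.3 and 32.6 CPM on days 0, 2, 4, 6, 10 and 18 of OKMS and 2.34, 6.34, 12.4 and 16.6 on days 0, 2, 6 and 18 of OKS. Mtf2 stood at 23.3, 20.6, 45.8, 47.7, 108 and 193 and 25.1, 15.7, 25.2 and 168 CPM on these days. Ezh1 read 4.39, 18.2, 18.1, 33.6, 67.0 and 56.4 in OKMS and 3.51, 23.9, 42.7 and 19.2 in OKS, so in both chemistries it stood above its day 0 and stem cell values at day 6, and at day 10 where read.

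**Figure D5:**
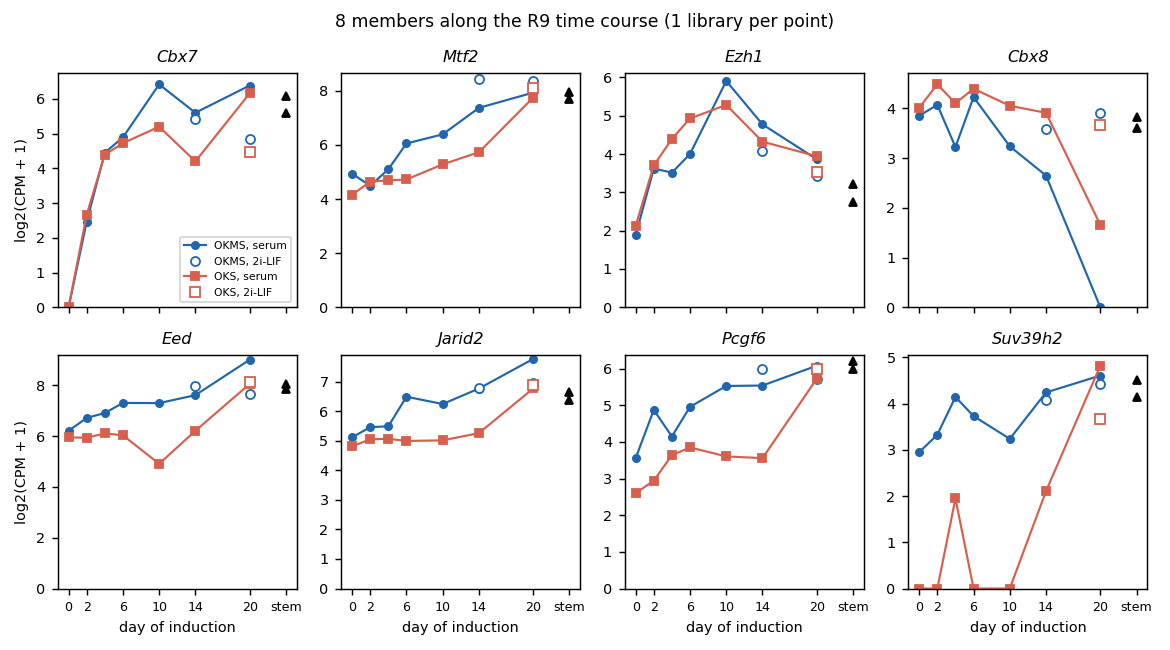
CPM of 8 members by day in R9 OKMS and OKS cells (lines, FBS-LIF with doxycycline), with open symbols for cells in 2i-LIF and triangles for R9 stem cells, on a log2(CPM + 1) axis. Cbx7 is above 0 from day 2 in both lines and is lower at day 14 than at days 10 and 20. Ezh1 peaks at day 10, Mtf2, Eed and Jarid2 in OKS are highest at day 20, and Cbx8 is lowest at day 20.

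After 2 days of serum medium with doxycycline alone, several of these genes differed in WT progenitors, about as often as any gene. In R10, 11 of 44 members were called between the 2 libraries at day 2 and the 2 in progenitor medium, against 26.8% of all 14688 genes, 3 higher (14.9% of all) and 8 lower (11.9%). With the replicate number as a block 13 members were called, 5 higher and 8 lower, and 5605 of the 14688 genes. Values follow in the order replicate 2, replicate 3. Pcgf2 was at 43.5 and 30.6 CPM in serum and 2.54 and 10.6 in progenitor medium (2.55 ± 0.61, adjusted p = 0.0309). Ezh1 was at 37.2 and 22.7 against 5.40 and 5.16 (2.26 ± 0.38, adjusted p = 0.0113), and Phf19 at 49.3 and 16.8 against 5.08 and 7.75 (2.04 ± 0.57, adjusted p = 0.0456). These 3 were higher in both serum libraries.

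Ezh2 went the other way from Ezh1, at 26.2 and 8.89 CPM in serum against 79.1 and 66.6 (-2.16 ± 0.50, adjusted p = 0.0276). Suz12 was at 5.48 and 4.94 against 15.9 and 16.6 (-1.48 ± 0.35, adjusted p = 0.0298), and Cbx2 at 2.35 and 4.94 against 11.8 and 16.4 (-1.74 ± 0.46, adjusted p = 0.0399). Suv39h1 was at 32.1 and 21.7 against 80.0 and 69.4 (-1.46 ± 0.28, adjusted p = 0.0163) and Suv39h2 at 0.391 and 0 against 4.13 and 1.72 (-1.66 ± 0.46, adjusted p = 0.0462). The other 3 were Eed, Trim28 and Wdr5. None of the 11 calls was left when any 1 of the 4 libraries was left out. In 3 of these 4 fits no gene at all was called, and the differences kept their sign, from 1.92 to 2.60 for Ezh1 and from -2.89 to -1.43 for Ezh2. With no filter on low values Phf19, Cbx2 and Suv39h2 lost their calls. In R9, with 1 library in serum, the 11 were not called. There Ezh1 was at 38.2 CPM in serum against 2.67 and 4.84 in WT progenitor medium, and Ezh2 at 42.4 against 237 and 198. Eed, at 62.2 against 78.9 and 51.3, lay within the progenitor range, and Phf19, at 11.3 against 10.7 and 4.84, just above it.

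Other gene sets moved with them. The proliferation list summed to 69.3 and 69.5 CPM in serum against 2436 to 2475 in progenitor medium, with all 8 of its genes called lower and a median log2 difference of -4.82. The astrocyte list summed to 1188 to 3057 against 42.6 to 93.3 CPM with 2 of its genes called higher, and the mesenchymal list to 97.9 to 291.2 against 7.62 to 18.7 with 3 higher. Their part in the changes of Ezh2, Suz12, Cbx2 and the Suv39h genes was not tested.

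Against WT cells in the same medium at day 2, the factor lines (1 OKMS and 1 OKS library of R10 against 2 WT) showed no called member, against 0.740% of all genes, by limma (5 at an unadjusted p under 0.05) or by edgeR (0). The smallest p-values, from limma with Benjamini-Hochberg adjustment, were those of Suz12, with 25.3 and 15.7 CPM in OKMS and OKS against 5.48 and 4.94 in WT (1.75 ± 0.56, adjusted p = 0.188), of Ezh2, with 100.4 and 34.7 against 26.2 and 8.89 (1.87 ± 0.63, adjusted p = 0.204), and of Eed, with 65.6 and 31.7 against 19.2 and 17.8 (1.26 ± 0.49, adjusted p = 0.258). For each of these the OKMS value was above the OKS value. The proliferation list summed to 308 to 1431 CPM in the factor lines against 69.3 and 69.5 in WT, with 3 of its 8 genes called higher, and its part in these values was not tested.

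Before induction the factor lines did not differ in a called way from WT progenitors either. Over 4 factor and 4 WT libraries of both chemistries, with chemistry in the fit, 0 of 43 members tested were called by limma (0% of all genes, 2 members at an unadjusted p under 0.05) and 0 by edgeR. Setd2 (0.58 ± 0.18, adjusted p = 0.478), Bmi1 (1.00 ± 0.34, adjusted p = 0.501) and Phf1 (-0.85 ± 0.44, adjusted p = 0.629) had the smallest p-values. Without R9 WT replicate 2, 1 member and 37 of 14253 genes were called.

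The lines with and without c-Myc differed over days 2 to 20 of R9, with the day as a block, in 10 of 44 members against 18% of all genes, 7 higher in OKMS (6.93% of all) and 3 higher in OKS (11% of all were lower in OKMS). The 6 days of 1 line each serve as the replicates here. An effect of c-Myc and other differences between these lines cannot be told apart. Ezh2 was at 111, 273, 227, 159, 234 and 281 CPM in OKMS on days 2, 4, 6, 10, 14 and 20 and at 65.5, 50.5, 64.3, 37.9, 128 and 265 in OKS (1.32 ± 0.27, adjusted p = 0.00376). OKMS was higher on all 6 days, by least at day 20. Suv39h2 was at 9.04, 16.7, 12.3, 8.44, 17.9 and 23.4 in OKMS and 0, 2.86, 0, 0, 3.31 and 27.3 in OKS (2.40 ± 0.51, adjusted p = 0.00484), higher in OKMS until day 14. Eed (1.27 ± 0.21), Trim28 (1.23 ± 0.19) and Pcgf6 (1.30 ± 0.30) were higher in OKMS, with Wdr5 and Jarid2, the last of which lost its call without day 6, 10 or 14 or with the day 0 pair added.

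Phf1 (-1.32 ± 0.37), Ring1 (-1.30 ± 0.33) and Cbx6 (-1.26 ± 0.20) were higher in OKS, and Phf1 lost its call without day 4 or 6 or with the day 0 pair added. In the 3 day pairs of R10 (days 2, 6 and 18) no member was called, nor any other of 15135 genes, and Jarid2 had the opposite sign (-0.38). The proliferation list moved with these members, with 6 of its 8 genes called higher in OKMS. The stem cell list was also apart from day 6, at 1261 CPM in OKMS against 150 in OKS at day 6, 5113 against 100.4 at day 10 and 9499 against 769 at day 14. The mesenchymal list was higher in OKS on each of these days, at 149 to 940 CPM in OKMS and 793 to 3465 in OKS. The proliferation sum ran from 1137 CPM at day 2 to 3014 at day 20 in OKMS, and in OKS stayed between 388 and 501 until day 10, then 1473 at day 14 and 2858 at day 20. The part of these lists in the difference was not tested.

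At matched line and day, 5 pairs of libraries compare 2i-LIF with FBS-LIF plus doxycycline: OKMS day 14, OKMS day 20 and OKS day 20 in R9, OKMS day 18 and OKS day 18 in R10. Of 44 members 6 were called (12.3% of all genes), 3 higher in 2i-LIF (5.95%) and 3 lower (6.32%). On centring to the median gene this was 5 and 2, and the split over all genes was not counted there. Values follow in the order of the pairs. Wdr5 was at 489, 525.6, 453, 467 and 457 CPM in 2i-LIF and 243, 228, 211, 172 and 242 in serum (1.13 ± 0.15, adjusted p = 5.24e-05), the steadiest of the 6. Kdm3a was at 132, 155, 172, 89.9 and 120.5 against 57.0, 115, 43.1, 53.4 and 60.2 (1.07 ± 0.21, adjusted p = 0.00224), and Cbx8 at 10.99, 14.0, 11.6, 5.29 and 17.2 against 5.28, 0, 2.16, 4.45 and 3.84 (1.79 ± 0.52, adjusted p = 0.0262). By CPM all 3 were higher in 2i-LIF in 5 of 5 pairs. Cbx8 rests on few reads, 9, 13, 10, 3 and 11 in 2i-LIF against 5, 0, 3, 3 and 3 in serum. The OKMS day 18 pair thus holds 3 reads on each side. Cbx8 was called in 1 of the 5 fits that leave out a pair (without OKMS day 18) and was not called at a pseudocount of 0.25, with differences of 1.26 to 2.19 without a pair.

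Phf19 was at 1.22, 1.07, 1.16, 0 and 1.56 CPM in 2i-LIF against 15.8, 11.1, 5.75, 11.9 and 1.28 in serum (-2.12 ± 0.55, adjusted p = 0.0142), lower in 4 of 5 pairs. Pcgf5 (-1.16 ± 0.33, adjusted p = 0.0256) and Suv39h1 (-1.04 ± 0.33, adjusted p = 0.0415) were lower too. Of the 6, Wdr5 kept its call without any 1 pair, Kdm3a lost it without OKS day 20, Phf19 without OKMS day 14 or OKMS day 18, and Pcgf5 and Suv39h1 without either of these or OKS day 20. Suv39h1 also lost its call on centring to the median gene (-0.95) and at a pseudocount of 0.25. The R10 pairs alone called no member, and 188 of 15446 genes in all. The mesenchymal list was higher in serum in all 5 pairs, at 149 to 793 CPM in R9 and 151 and 656 in R10, against 9.67 to 18.3 and 15.9 to 34.4 in 2i-LIF. The neuron list was too, at 663 to 997 CPM in serum against 219 to 346, but its genes do not all move together. Between R10 stem cells and progenitors, Stmn2 (log2 difference 6.98) and Tubb3 (3.88) were higher in stem cells, and Map2 (-7.47) and Rbfox3 (-1.89) lower. The sum is therefore no measure of neurons alone. The part of the mesenchymal and neuron lists in these results was not tested.

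How far the reprogrammed cells matched stem cells was compared in R10. The next 2 comparisons share their 7 stem cell libraries. The 2 libraries of day 18 in 2i-LIF differed in 6 of 44 members (9.06% of all genes), 1 higher (4.28%) and 5 lower (4.77%). Setdb1 was at 44.1 and 56.3 CPM in OKMS and OKS against 80.6 to 155 in stem cells (-1.35 ± 0.22, adjusted p = 0.00372). Cbx7 was at 15.9 and 12.5 against 29.0 to 48.5 (-1.34 ± 0.25, adjusted p = 0.00691), below every stem cell library. Kdm3b (-1.22 ± 0.17), Kmt2a (-1.19 ± 0.29) and Cbx6 (-1.05 ± 0.25) were lower, and Pcgf5 was higher, at 10.6 and 9.39 CPM against 3.06 to 4.85 (1.18 ± 0.31, adjusted p = 0.0279).

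With O4G stem cells only, the line the reprogrammed cells come from, no member was called, and 57 of 14462 genes were in all. The differences, of which that of Kdm3b alone was smaller in size than with all 7 stem cell libraries, were -1.56 for Setdb1, -1.60 for Cbx7, -1.40 for Cbx6, -1.17 for Kdm3b, -1.21 for Kmt2a and 1.28 for Pcgf5. No member was called in R9 either, where 110 of 15479 genes were. There Setdb1 (0.17), Kdm3b (0.16), Kmt2a (0.40) and Pcgf5 (-0.38) had the opposite sign. edgeR called 3 of the 6 (Setdb1, Cbx7 and Kdm3b), and 270 genes in all. Kmt2a and Pcgf5 also lost their calls without the OKMS library, Cbx6 without the OKS library or O4G replicate 2, and Pcgf5 without O4G replicate 1 or R1 replicate 2.

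Day 18 cells in serum differed from stem cells in 12 of 44 members (22.2% of all genes), 3 higher (10.5%) and 9 lower (11.8%). On centring to the median gene this was 1 and 10, and the split over all genes was not counted there. The mesenchymal list summed to 151 and 656 CPM in the OKMS and OKS libraries against 4.47 to 15.1 in R10 stem cells. The neuron list, whose genes do not all move together, summed to 766 and 663 against 259 to 472. The stem cell list was at 5726 CPM in OKS, below the 11256 to 13878 of the stem cells, and at 15716 in OKMS, above them. The part of these lists was not tested. Bmi1 was at 0 in both serum libraries against 1.12 to 5.82 CPM in stem cells, and was called lower (adjusted p = 0.00342). A count of 0 allows up to 3 reads, which are 4.45 and 3.84 CPM in these libraries and within the stem cell range, and edgeR did not call Bmi1. Pcgf5 was at 32.6 and 14.1 in OKMS and OKS against 3.06 to 4.85 (2.21 ± 0.35, adjusted p = 8.09e-04). Setdb1 was at 20.8 and 46.1 against 80.6 to 155 (-2.01 ± 0.29, adjusted p = 4.19e-04), and Phf19 at 11.9 and 1.28 against 0 to 2.32 (1.69 ± 0.58, adjusted p = 0.0465), where only the OKMS library stood out and without it the difference was 0.44. Pcgf5 lay above every stem cell library in all 4 day 18 libraries, serum and 2i-LIF, and Setdb1, Trim28, Kdm3b and Dot1l lay below every one. These members were picked after their values were seen, and the share of all genes separated so was not counted. The day 18 libraries were also shallower, at 566599 to 780312 reads against 2226725 to 4236442 in R10 stem cells. In R9, Trim28 was at 1408 to 1690 CPM in 2i-LIF cells and 1449 and 1683 in stem cells.

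Wdr5 (-1.43 ± 0.31), Pcgf1 (-1.41 ± 0.37), Trim28 (-1.27 ± 0.32) and Kdm3a (-1.23 ± 0.21) were lower, as were Cbx8, Kdm3b and Mtf2, while Kdm4c was higher. Pcgf1, Kdm3b, Mtf2 and Cbx8 lost their calls without the OKS library, and Trim28, Wdr5, Cbx8, Kdm4c and Phf19 without the OKMS library. Cbx8, Pcgf1 and Phf19 were not called by edgeR, and Kdm4c was not on centring to the median gene (0.98) or without the R1 library that has no n number (0.995). Phf19 also lost its call without any 1 of 6 of the 7 stem cell libraries, at a pseudocount of 0.25, with no filter and on centring. R9, at days 14 and 20, called no member, with 191 of 16313 genes called in all, and had the opposite sign for Bmi1 (0.79).

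Across these comparisons 33 of the 44 members were called at least once, against 58.2% of the 20984 genes tested in any of them. These are unlike sets. All 44 members were tested throughout, except for 43 in uninduced factor lines against WT. Single comparisons tested 13647 to 19357 genes, so part of the 20984 had fewer chances of a call. The 11 that were not are Rnf2, Kdm1a, Kdm2b, Kdm4a, Kdm5a, Kmt2b, Kmt2c, Dot1l, Setd2, Ehmt1 and Ehmt2. They include the ligase Rnf2, both G9a-type enzymes and 2 of the 4 KMT2 enzymes. For Ehmt2 the gene level may include reads of the model that starts outside the gene. Of these, Rnf2, Kdm1a, Kdm4a, Kmt2c and Ehmt1 had transcript models called in the test of shares.

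Promoter sequence was available for 36 of the 44 members, in 48 of 32851 RefSeq promoters of 300 bases. The members' promoters held a median of 28 CG dinucleotides against 7 over all promoters, and a median GC content of 65.3% against 52.7%. On either strand, the letters ATGCAAAT (the octamer motif of Oct4 and its relatives) were in none of them and in 1.74% of all promoters. CACGTG (the E-box of Myc) was in 7 promoters of 6 members (Bmi1, Cbx6, Cbx8, Ehmt2, Kdm4c and Pcgf2), against 7.15% of all. TTCCCGCC (an E2F motif) was in those of Pcgf5, Suv39h2 and Trim28, against 2.19% of all, and CCACACCC (a KLF motif) in those of Pcgf3 and Rnf2, against 3.56%. None of the 4 promoters printed above holds any of these motifs, which do not overlap one another. A match is a run of letters and no measure of binding.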

How the data were processed

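The authors deposited gene expression as CPM (counts scaled to a fixed library total) and transcript expression as TPM (the same after division by model length). Reads were aligned with minimap2 2.24-r1122 and the build was mm10, per the submitters' processing notes. How genes were counted, and whether strand was used, is not given in the sources used here. Of the gene table, 13 columns were not used because they match no sample given here. Every CPM value checked (100% of 707746 above 0) was a whole number of reads within 0.02 reads once scaled by the library's smallest step. TPM times model length gave whole reads likewise (100% of 3594482 checked). The values with the most reads were left out of both checks. Transcript reads were 38.0 to 52.9% of gene reads.

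Tests used limma 3.58.1 in R 4.3.3 with a trend in the prior variance on log2(CPM + 1), over all genes that reached 1 CPM in a number of libraries no smaller than the smaller group (2 in the time course). In the time course the factor line was an additive term and days were tested jointly (moderated F test), the comparison of OKMS with OKS carried the day as a term, and that of 2i-LIF with serum the pair. edgeR 4.0.16 (quasi-likelihood) on the recovered reads was the alternative and called 7599 genes between stem cells and progenitors in R10 where limma called 7067. Both scripts were tested on simulated data. Also tried were log2(CPM + 0.25), leaving the filter out or raising it to 5 CPM, median centring, each library left out in turn, and the other chemistry.

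The 44 members and all lists were chosen with earlier results of these data known. Values are given for the 12 members with the largest R10 difference between stem cells and progenitors that were called and of the same sign in R9, and for the members that head each role. In other comparisons the called members are named, up to 8, largest first, or the 3 with the smallest p where none was called. Transcripts and related genes follow the same rule, up to 8 and 4 per direction. Other names were chosen after their values were seen. The depth of each library limits members under about 3 reads, and Wilson intervals cover counting error only. Promoter sequences are from RefSeq, build GRCm38.p6.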

Additional observations from a re-analysis of the deposited data

Results flagged for a closer look

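In groups of 4 to 10 libraries, 13 of 131 member and group combinations had a highest or lowest library set far from the rest by Dixon's criterion at 95%, where chance gives about 1 in 20. In 7 of the 13 it was the R1 stem cell library without an n number, in R10. It had the highest Wdr5 (1124 CPM, next 569.5), Trim28 (695.7, next 372.2), Kdm1a (179.3, next 95.8), Ehmt2 (92.2, next 39.7), Kdm6b (55.6, next 18.2), Kmt2d (51.2, next 19.4) and Kmt2c (48.2, next 26.7). This library also had the lowest mitochondrial share of all R10 libraries, 0.124%. Whether that bears on the 7 values was not tested. The Ehmt2 value may include reads of a model that starts outside the gene, which held most Ehmt2 transcript reads of R10 stem cells.

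Of the other 6, O4G stem cell replicate 2 had the highest Cbx6 in R10 (46.2 CPM, next 32.5). WT progenitor replicate 2 of R10 had the highest Kdm4a (87.7, next 60.8), Dot1l (117.5, next 83.5) and Trim28 (190.6, next 178.8). The OKMS progenitors had the highest Pcgf6 in R10 (17.1, next 12.3), and the OKS progenitors the highest Trim28 in R9 (467.1, next 385.2).

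The difference between stem cells and progenitors was itself different between chemistries for Ring1 (-2.68 on the log2 scale, R10 minus R9), Kdm6b (-2.26) and Wdr5 (-1.54), by the interaction term of the fit. With edgeR the calls of Kdm6b and Wdr5 were lost, and at a pseudocount of 0.25 that of Kdm6b.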

How the results depend on the processing

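Of the 158 alternative values computed for the 12 counts of called members or transcripts, 136 lay within 1.5 times the main count. These include 10 for factors at day 2 and 14 for factor-carrying progenitors, where a count of 0 met a main count of 0. Of the values for single members and starts 1665 stayed the same, 232 kept direction only, 14 moved and 13 reversed. The same means direction and call, or for starts, which have no call, a difference within the SD between libraries of the main one. Leaving out each library or day in turn gave 21 to 23 called members between stem cells and progenitors in R10 (21 with all), 10 to 16 in R9 (15), 0 to 0 for serum in WT progenitors (11), 0 to 0 for factors at day 2 (0), 0 to 1 for factor-carrying progenitors (0, with 1, and 37 of 14253 genes, when R9 WT replicate 2 was left out), 2 to 10 for the time course (10), 9 to 11 for OKMS against OKS (10), 2 to 8 for 2i-LIF against serum (6), 5 to 8 and 10 to 12 for 2i-LIF and serum cells of day 18 against stem cells (6 and 12), and 22 to 29 for transcripts (24). Leaving out a library of the serum comparison leaves an arm with 1 library, whose spread is assumed to be that of the others. The other chemistry gave 1 for serum in WT progenitors, 2 for the time course, 0 for OKMS against OKS, 0 for 2i-LIF against stem cells, 0 for serum cells against stem cells and 4 for transcripts, and the R10 pairs alone gave 0 for 2i-LIF against serum. edgeR gave 1 for the interaction with chemistry (3; 86 of 15300 genes against 557), 19 for the time course and 3 for 2i-LIF against stem cells. With O4G stem cells only, 2i-LIF against stem cells gave 0. For transcripts, a minimum of 1 TPM gave 38 (6938 of all 37141 models, against 4733 of 22130 for the 24), the R1 library without an n number as the only stem cell library gave 12 (1120 of 25345), and leaving out the 3 libraries of low mitochondrial share, an alternative added after seeing the data, gave 43 (6125 of 25378).

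The WT replicate numbers of the serum comparison were used as a replicate block: 13 members were called in place of 11, and deviations of same-numbered libraries correlated at 0.474 over 2 pairs. No other comparison could be paired by replicate number.

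Signs turned for Kmt2d (0.31, R1 library without an n number only), Trim28 (-0.59, time course without day 20, against 1.71 with all days and without any 1 of the other days), Jarid2 (-0.38, OKMS against OKS in R10), Pcgf5 (-0.38), Kdm3b (0.16), Kmt2a (0.40) and Setdb1 (0.17) in 2i-LIF against stem cells of R9, and Bmi1 (0.79, serum against stem cells in R9). Among transcripts they turned in R9 for models of Rnf2 (-11.0 points), Ehmt1 (-13.7), Setdb1 (-13.7) and Kdm1a (-2.97), and for a Kmt2c model against the R1 library alone (3.15). The causes were not tested. Median centring moved the median of all genes by -0.15 for serum in WT progenitors, -0.20 for factors at day 2 and 0.15 for OKMS against OKS. Members at a few CPM, such as Phf1, Phf19, Ring1 and Bmi1 in stem cells, rest on few reads at these depths, and starts of Kdm2b, Kdm3a and Kdm6b on few R9 reads.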

Other observations

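A row that carries the name Ehmt2 began outside the gene. A model of 2 exons and 444 bases, with no open reading frame, starts at chr17:34825852 on the plus strand, 72625 bases upstream of the next Ehmt2 start. It held 249 of 318 Ehmt2 transcript reads in R10 stem cells, 66.7 to 87.6% by library, and 24 of 34 in R9. It held none of the 70 R10 and 21 R9 progenitor reads. WT progenitors after 2 days in serum held 77 of 142 and 94 of 112 in R10 and 13 of 20 in R9. OKS cells at day 2 held 13 of 19 in R9 and 40 of 51 in R10, and OKMS cells at day 10 5 of 6 and 31 of 35. R9 OKMS cells held 10 of 19 at day 14 and 12 of 21 at day 20. The other 14 libraries of factor cells in serum held none of their 2 to 14 Ehmt2 reads each. The libraries of reprogrammed cells in 2i-LIF held none, of 8, 6 and 4 Ehmt2 reads in R9 and of 0 and 3 in R10, too few to compare with stem cells.

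Rows that the authors name as antisense to a member exist for 8 genes or joined loci. The one at Jarid2 (chr13:44857612-44869834, minus strand) had a median of 3303 CPM in R10, within 1907 to 9560, and at most 9.55 CPM in R9. Those at Kdm6b and Pcgf3 reached 104.9 CPM in R10 and 65.6 CPM in R9. R10 read total RNA and R9 poly(A)-selected RNA.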
